A study of Homo sapiens with 16 samples.

Results

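Interferon-stimulated genes are the genes that cells switch on when an interferon binds its receptor. The 47 members described here are a set of these genes chosen by name, all of which were among the 19454 genes measured in PC9 cells and 46 among the 17954 measured in MDA231 cells (20851 genes in either line). A mean of at least 10 normalised reads over the 8 libraries of a line left the same 45 members in each line. RSAD2 was under that mean in both lines, CMPK2 was under it in PC9, and CMPK2 is not analysed here in MDA231.

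RNA was sequenced from 2 human cancer cell lines, PC9 from a lung cancer and MDA231 from a breast cancer. Each line was studied as parental cells with no hairpin and as LeptoM cells, which were derived from it and form metastases in the leptomeninges (the membranes that wrap the brain and spinal cord). The LeptoM cells carried a lentiviral short hairpin: a control hairpin (shCTL), or shLCN2_1 or shLCN2_2, both directed against LCN2. All cells were grown in dishes and lysed 2 days after seeding, with 2 libraries per group and 16 in all. The comparison of LeptoM shCTL with parental cells asks what sets the metastatic derivative apart, although the hairpin vector and the derivative cannot be told apart in it. The other comparisons ask what follows when LCN2 is lowered in LeptoM cells. The labels do not say whether a LeptoM line is 1 clone, nor whether a group's 2 libraries are separate cultures. The p-values therefore reflect the spread between libraries alone, and that spread may be technical.

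Type I and type III interferons act through the kinases JAK1 and TYK2 on a complex that contains STAT2 and IRF9 and binds a DNA motif named the interferon-stimulated response element. The genes behind that motif encode proteins that sense viral RNA, degrade it, block its translation, trap virions, or attach the ubiquitin-like protein ISG15 to other proteins. In tumour cells, many of these genes can stay on at a low level without an infection.

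The hairpins' target LCN2 is the gene of lipocalin-2, which cells secrete and which captures bacterial iron carriers. In PC9, its normalised read counts were 21140.4 and 23248 in parental cells, 51004 and 49615 with shCTL, 3575 and 7046 with shLCN2_1, and 21415 and 18861 with shLCN2_2. Every PC9 hairpin library thus had less LCN2 than either shCTL library, and LCN2 fell by 3.33 ± 0.25 (log2, adjusted p = 0.000167) with shLCN2_1 and 1.32 ± 0.25 (adjusted p = 0.0111) with shLCN2_2. In MDA231 the counts were 8.51 and 2.98 in parental cells, 19.3 and 13.7 with shCTL, 6.53 and 5.79 with shLCN2_1, and 4.31 and 4.93 with shLCN2_2, under the minimum mean and not tested. Libraries held 36796098 to 51759154 gene reads in PC9. In MDA231 the LeptoM libraries held 41751486 to 49050069 and the parental libraries only 11592790 and 11613984. That difference in depth and the comparison with parental cells cannot be told apart in MDA231, where 3 reads correspond to a value of 8.51 or 8.94 in parental and 1.93 to 2.28 in LeptoM libraries. The summed value of 6 epithelial markers was 545053 and 603155 in PC9 parental libraries, and that of 5 mesenchymal markers from 188358 to 236184 in MDA231. The keratins KRT8, KRT18 and KRT19 made up most of the PC9 sum, and VIM most of the MDA231 sum. SPARC in MDA231 had a mean of 2552 in parental cells and 3.64 with shCTL.

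Values are normalised read counts, and each line was normalised on its own, so levels are not compared between lines. A difference is given as log2 of (value + 1) between group means ± SE from limma, and a gene was called, or said to have risen or fallen, at an adjusted p under 0.05 over all genes of the line. The words "kept in 8 of 8" give the number of refits, each without 1 of the 8 libraries, that still called the gene. Where a smooth trend with GC content, described with the PC9 hairpins, was taken out of each library and this ended a call or moved its value by over 1.5 times, the value without the GC trend follows in the same parentheses. Genes called only without the GC trend are not marked in this way. In bulk RNA, fewer cells expressing a gene and less of its RNA per cell cannot be told apart. The OAS, IFIT and IFITM genes have closely related neighbours among which reads may be shared, and overlapping antisense genes may share reads too, because the strand setting of the counting was not given in the sources used here.

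The promoters of members were read from RefSeq (GRCh38.p14), from 250 bases before to 50 after the start. A promoter entry was found for 37 of the 47 members. OAS2, OASL, IFIT2, IFITM2, DHX58, IRF7, USP18, MX2, TRIM22 and PML had none. The letters GAAANNGAAA, on either strand, which form the core of the interferon-stimulated response element, occurred in 24 of these 37 members (64.9%), against 4.38% of all 27305 genes with an entry and 3.57% of all 35116 entries. The letters TTCNNNGAA, a core of the gamma-activated site and read the same on both strands, occurred in 11 of 37 members (29.7%), against 9.38% of genes and 7.66% of entries. A match is a description of the letters only.

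The 150 bases before the start are printed for 6 members that carried a response-element match and differed in behaviour. IFIT1 (chr10:89392473-89392622, plus strand) rose in the LeptoM cells of both lines, and IFITM1 (chr11:313890-314039, plus strand) rose in those of MDA231. IFI27 (chr14:94110586-94110735, plus strand) and IFI6 (chr1:27672193-27672342, minus strand) had their highest PC9 values with shLCN2_2. ISG15 (chr1:1013347-1013496, plus strand) had opposite signs with the 2 hairpins in PC9, and BST2 (chr19:17405631-17405780, minus strand) fell in MDA231 LeptoM cells. Capitals mark GAAANNGAAA or its reverse complement, and in ISG15 and BST2 the 2 matches overlap.
IFIT1: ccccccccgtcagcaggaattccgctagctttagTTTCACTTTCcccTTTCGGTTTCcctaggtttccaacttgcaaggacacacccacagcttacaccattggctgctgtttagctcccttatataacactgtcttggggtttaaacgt
IFITM1: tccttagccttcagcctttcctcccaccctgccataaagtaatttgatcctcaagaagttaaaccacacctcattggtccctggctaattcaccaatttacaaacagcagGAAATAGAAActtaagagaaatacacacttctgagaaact
IFI27: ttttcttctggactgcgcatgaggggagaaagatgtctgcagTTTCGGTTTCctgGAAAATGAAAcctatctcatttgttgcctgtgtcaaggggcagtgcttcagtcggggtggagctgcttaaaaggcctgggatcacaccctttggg
IFI6: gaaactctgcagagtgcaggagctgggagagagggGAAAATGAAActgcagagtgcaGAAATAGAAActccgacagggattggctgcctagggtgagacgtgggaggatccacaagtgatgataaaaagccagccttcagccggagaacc
ISG15: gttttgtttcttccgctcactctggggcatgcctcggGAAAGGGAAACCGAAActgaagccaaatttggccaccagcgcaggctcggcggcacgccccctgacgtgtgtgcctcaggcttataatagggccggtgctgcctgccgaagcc
BST2: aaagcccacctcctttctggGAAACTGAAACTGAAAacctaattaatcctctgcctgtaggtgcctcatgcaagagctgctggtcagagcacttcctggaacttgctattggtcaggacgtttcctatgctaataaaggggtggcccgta

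In LeptoM cells with the control hairpin, more members had risen than fallen in each line. Among the members called in both lines, OASL rose by 2.99 in PC9 and 2.91 in MDA231, 2 effects that differed by 0.089 ± 0.20 (adjusted p = 0.743), and OAS2, IFIT1, IFIT2, DDX60, STAT2, HERC6, MX1, SAMD9, SAMD9L and XAF1 rose as well. The translation-blocking kinase EIF2AK2 and the nuclear body protein SP100 fell in both. The 2-5A synthetase OAS3, the RNA sensor DDX58, the ISG15-conjugating enzyme UBE2L6 and PARP14 fell in PC9 and rose in MDA231. Some of these calls depended on the fit. Without the GC trend, EIF2AK2 and MX1 were no longer called in MDA231, nor PARP14 in PC9. XAF1 in MDA231 was not called in most of the other fits tried, and edgeR, a second test, did not call OAS2 in PC9.

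In PC9, 17 of 45 members rose and 7 fell, where 23.8% of all 15650 genes rose and 21.8% fell (45.6% called). The members' median difference was 0.32, against 0.013 for all genes. In MDA231, 25 of 45 rose and 5 fell, where 24.8% of all 14387 genes rose and 23.8% fell (48.7% called). The median was 0.70, against 0.044 for all genes, which upper-quartile scaling moved to 0.28. Under that scaling 32 members were called, 87.5% of them higher, against 83.3% of the 30. Of all genes called, 73.3% were higher under that scaling, against 51.0% as deposited. Of the 45 members, 11 rose in both lines, where 6.35% of the 13392 genes tested in both rose in both. Of the same 45, 2 fell in both, where 7.59% of these genes fell in both. A gene that passes the minimum mean only through the group where it is high had to differ, and 8 of the 45 members in PC9 and 2 in MDA231 had a group mean under 10, so these counts describe the members and are not independent support. Without the first shCTL library 13 members were called in PC9 and 19 in MDA231.

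The summed value of the 5 mesenchymal markers was 130576 and 120263 in PC9 parental libraries against 6178 to 24428 in PC9 LeptoM libraries, with SPARC at 0 reads in both shCTL libraries. FN1 made up most of this sum. ZEB1 was not called, with a mean of 12.3 in parental cells and 25.8 with shCTL. The summed value of the 4 leukocyte markers measured was 116 and 68.5 in MDA231 parental libraries, with ITGAM at 0 reads, against 124 to 198 in MDA231 LeptoM libraries. Their part in the members' differences was not tested.

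**Figure D1:**
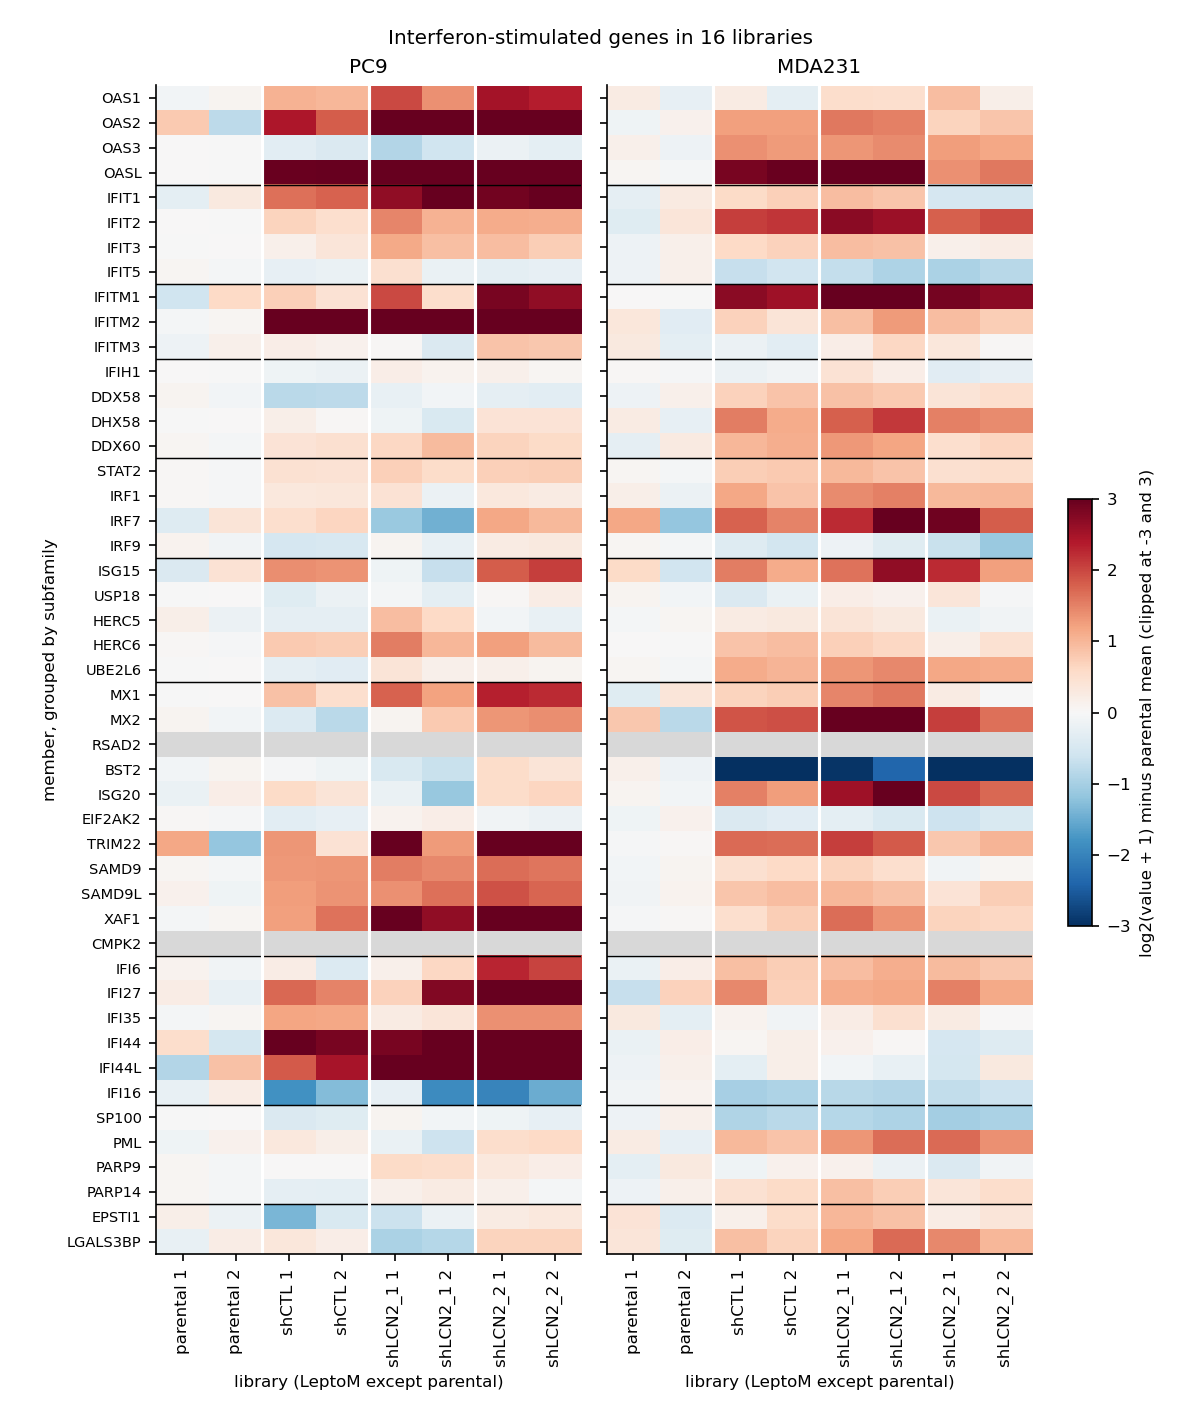
Each row is a member and each column a library, with colour showing log2(value + 1) minus the mean of the 2 parental libraries of the same line, clipped at -3 and 3. Grey rows were under the minimum mean or are not analysed, and black lines part the subfamilies. OASL is dark red in all 6 LeptoM libraries of PC9, and BST2 is blue in all 6 LeptoM libraries of MDA231.

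With the LCN2 hairpins, PC9 members differed from shCTL with a different pattern for each hairpin. With shLCN2_2, 23 of 45 members rose and 0 fell, where 9.81% of all genes rose and 9.7% fell (19.5% called). For the members lower with shLCN2_2, limma's unadjusted p was under 0.05 for 0 members, and edgeR also called 0. OAS2 (3.36), IFI27 (3.22) and IFI6 (2.25) rose furthest with shLCN2_2. IFI27 passed the minimum mean only through shLCN2_2, with group means of 6.72 with shCTL, 9.83 with shLCN2_1 and 70.9 with shLCN2_2. It therefore had to differ. OAS2 passed through the hairpin groups, with means of 6.67, 29.7 and 77.4. Here too 8 of the 45 members had a PC9 group mean under 10, so the hairpin counts are not independent support. With shLCN2_1, 20 members rose and 9 fell, where 18.8% of all genes rose and 25.3% fell (44.2% called). OAS2 (1.99) and XAF1 (1.68) rose furthest with shLCN2_1, and the transcription factor IRF7 (-1.86) and ISG15 (-1.78) fell furthest. Among the genes called with shLCN2_1, 42.6% were higher as deposited, 59.0% under upper-quartile scaling and 18.2% with a GC trend taken out of each library, and for the members these shares were 69.0%, 76.7% and 64.7%. The median member difference was 0.48 with shLCN2_1 and 0.51 with shLCN2_2, against 0.031 and -0.0023 for all genes. Both hairpins were compared with the same 2 shCTL libraries, so the values of the 2 comparisons are set side by side and no overlap of their calls is given.

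Compared directly, shLCN2_1 was above shLCN2_2 for 3 members and below it for 15 in PC9, where 25.6% of all genes were higher and 28.9% lower (54.5% called). The 3 make up 16.7% of the 18 called, a share that was 33.3% of 21 under upper-quartile scaling and 7.69% of 26 with the GC trend taken out. The count of calls with shLCN2_2 moved most with single libraries. It was 5 and 4 without the first and second shCTL library, 3 and 5 without the first and second shLCN2_2 library, and 34 without either shLCN2_1 library. OAS1, MX1 and IFI6 were called with shLCN2_2 in all 8 of these refits. With shLCN2_1 the count was 15 without the first shCTL library and 19 without the second. The summed value of the leukocyte markers also differed between the hairpins in PC9, from 659 and 711 with shCTL to 286 and 439 with shLCN2_1 and 1292 and 1348 with shLCN2_2. Of that list PTPRC, the pan-leukocyte gene, went against the sum. Its values were 16.5 and 16.3 with shCTL, 47.2 and 29.7 with shLCN2_1, and 17.7 and 7.79 with shLCN2_2. Of the 4 markers tested, 1 was called higher and 3 lower with shLCN2_1 than with shLCN2_2. AIF1, CD3E, CLEC4C, IL3RA and MS4A1 are not analysed here. The summed value of the 6 epithelial markers was 721732 and 684282 with shCTL, 440883 and 432465 with shLCN2_1, and 722794 and 719136 with shLCN2_2. KRT8, KRT18 and KRT19 made up most of this sum. With shLCN2_1 3 of the 6 were called lower and 3 higher. The mean of EPCAM went from 15954 with shCTL to 18383 with shLCN2_1, of CDH1 from 20207 to 25537 and of ESRP1 from 10287 to 12383. Markers with a lower mean with shLCN2_1 than with shCTL (KRT8, KRT18, KRT19, CD68, CSF1R and ITGAM) have a GC content of 54.2 to 61.8%. Those with a higher mean (EPCAM, CDH1, ESRP1 and PTPRC) have 38.2 to 48.6%. The shLCN2_1 libraries had lower values for GC-rich genes, as described below, and marker values without that trend are not given. The part of these markers in the members' differences was not tested.

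**Figure D2:**
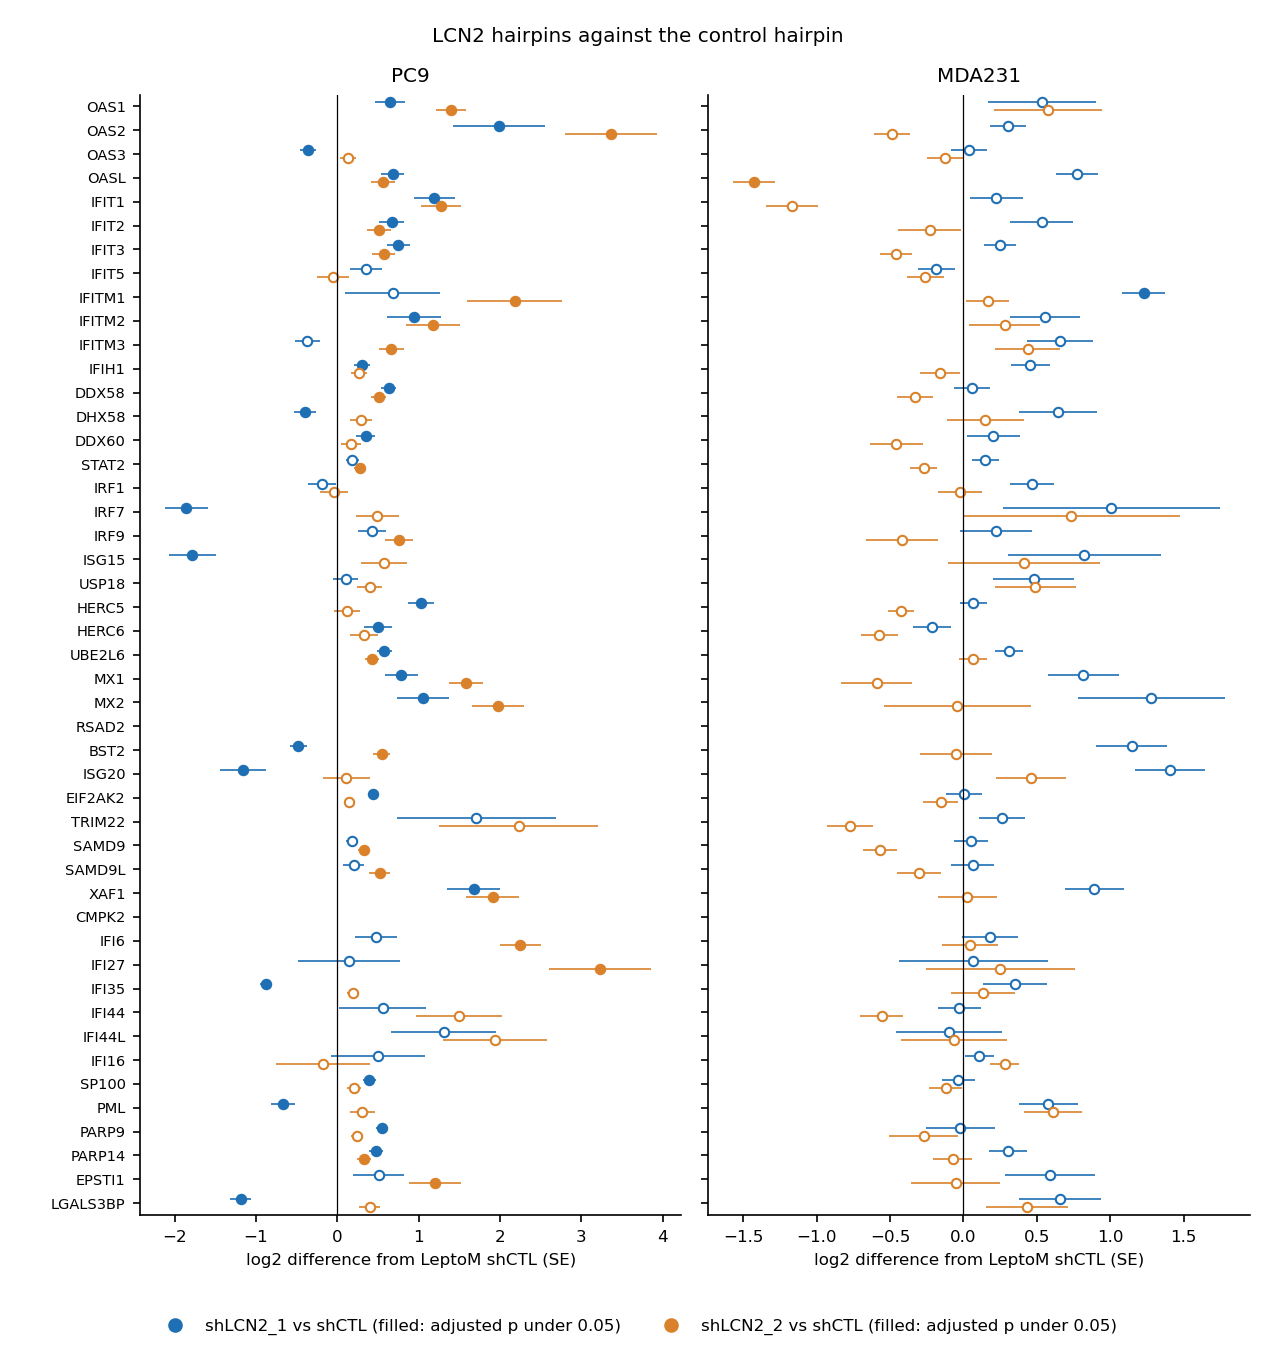
Points are log2 differences of each hairpin from LeptoM shCTL with SE bars, filled where the adjusted p was under 0.05, with a separate horizontal scale for each line. In PC9 the orange points (shLCN2_2) lie to the right of 0 for 42 of 45 members, whereas blue points (shLCN2_1) range from -1.86 to 1.99.

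The PC9 shLCN2_1 libraries had lower values for GC-rich genes than the others. Over all genes, the Spearman correlation of a library's deviation from the gene mean with the GC content of the longest transcript was -0.545 and -0.638 in these 2 libraries and -0.155 to 0.513 in the other 6. The members' GC content ran from 36.0 to 66.8%, with a median of 48.2%, against 48.4% for all genes. Across the 45 members, the difference between shLCN2_1 and shCTL correlated with GC content (Pearson's r = -0.640, Spearman's rho = -0.488), as it did over all genes (rho = -0.659). These correlations are over genes of the same libraries and are descriptions. Of the 23 members at or above the median GC content 6 rose and 9 fell with shLCN2_1, and of the 22 under it 14 rose, so that all 9 members that fell were among the GC-rich. When a smooth GC trend was taken out of each library, 17 members were called in place of 29, 5 higher and 5 lower among the GC-rich and 6 higher and 1 lower among the others. IRF7 was then -0.57 in place of -1.86, ISG15 -0.83 in place of -1.78, LGALS3BP -0.51 in place of -1.19 and IFI35 -0.36 in place of -0.88, each still called. This step also moved the median over all genes, from 0.031 to -0.14 with shLCN2_1 and from 0.022 to -0.15 between the hairpins. Values without the GC trend in these 2 comparisons are therefore not centred on 0. With shLCN2_2, 27 members were called after the same step, 0 of them lower.

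In MDA231 few genes passed the threshold with either hairpin in the values as deposited. With shLCN2_1, 1 of 45 members rose (IFITM1) and 0 fell, where 0.389% of all genes rose and 0.452% fell (0.841% called). With shLCN2_2, 0 rose and 1 fell (OASL), where 0.139% of all genes rose and 0.382% fell (0.521% called). At an unadjusted p under 0.05, limma had 15 members higher and 0 lower with shLCN2_1, and 2 higher and 13 lower with shLCN2_2. EdgeR called 4 higher and 0 lower with shLCN2_1, and 0 higher and 2 lower with shLCN2_2. The median member difference was 0.30 with shLCN2_1 and -0.073 with shLCN2_2, against 0.0027 and -0.0042 for all genes. Compared directly, 9 members were higher with shLCN2_1 than with shLCN2_2 (OAS2, OASL, IFIT1, IFIT3, IFITM1, HERC5, MX1, TRIM22 and SAMD9) and 0 lower, where 1.52% of all genes were higher and 1.17% lower (2.69% called). For the lower direction, limma's unadjusted p was under 0.05 for 0 members and edgeR called 0, whereas edgeR called 13 higher. The counts of 1 called member came to 0 without any 1 of the 6 LeptoM libraries, and the count of 9 came to 0 or 1, but without the first or second parental library they were 7 and 6 with shLCN2_1, 6 and 6 with shLCN2_2, and 18 and 18 between the hairpins. In MDA231 the correlation of a library's deviation with GC content differed within groups (0.297 and -0.331 in the 2 shCTL libraries). With the GC trend taken out of each library, 15 members were called with shLCN2_1, 11 with shLCN2_2 (2 higher and 9 lower) and 22 between the hairpins, and 1062, 716 and 2135 genes in all, against 121, 75 and 387.

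The OAS genes encode 2-5A synthetases, which sense double-stranded RNA and activate the nuclease RNase L, and OASL, a relative without that activity. All 4 OAS members were called in PC9 LeptoM cells, 3 higher and 1 lower (median 1.57), and 3 of 4 rose in MDA231 (median 1.29). With shLCN2_1 3 rose and 1 fell in PC9, and with shLCN2_2 3 rose. Of all genes, 45.6% were called in PC9 LeptoM cells, 48.7% in MDA231 LeptoM cells, and 44.2% and 19.5% with shLCN2_1 and shLCN2_2 in PC9. The counts of this and each later subfamily are of few genes, stand beside these shares and are descriptions only.

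In PC9, OASL values were 22.8 and 22.3 in parental cells, 182 and 192 with shCTL, 278 and 324 with shLCN2_1, and 278 and 273 with shLCN2_2. All 6 LeptoM libraries lay above both parental libraries, and both LCN2 hairpins lay above shCTL. OASL rose by 2.99 ± 0.15 (adjusted p = 4.81e-06, kept in 8 of 8) in LeptoM cells, and by 0.68 ± 0.15 (adjusted p = 0.00615, kept in 7 of 8) with shLCN2_1 and 0.56 ± 0.15 (adjusted p = 0.0319, kept in 4 of 8) with shLCN2_2. In MDA231 the values were 45.4 and 41.7 in parental cells, 321 and 344 with shCTL, 555 and 584 with shLCN2_1, and 114 and 132 with shLCN2_2. Here shLCN2_1 was above and shLCN2_2 below shCTL, without overlap between any of the 4 groups. OASL rose by 2.91 ± 0.14 (adjusted p = 3.62e-05, kept in 8 of 8) in MDA231 LeptoM cells, fell by 1.43 ± 0.14 (adjusted p = 0.0231, kept in 2 of 8) with shLCN2_2, and differed by 0.77 ± 0.14 (adjusted p = 0.0729) with shLCN2_1. The hairpins differed by 2.20 ± 0.14 (adjusted p = 0.00199, kept in 7 of 8), the largest difference between them among the members.

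OAS1 values in PC9 were 137 and 153 in parental cells, 301 and 289.6 with shCTL, 572 and 374 with shLCN2_1, and 815 and 742 with shLCN2_2. The groups did not overlap, and their order from low to high was parental, shCTL, shLCN2_1 and shLCN2_2. OAS1 rose by 1.02 ± 0.19 (adjusted p = 0.00296, kept in 8 of 8) in LeptoM cells, 0.65 ± 0.19 (adjusted p = 0.0235, kept in 6 of 8, without the GC trend 0.40 with adjusted p = 0.16) with shLCN2_1 and 1.39 ± 0.19 (adjusted p = 0.00332, kept in 8 of 8) with shLCN2_2. OAS1 in MDA231 was low, at 17.02 and 11.9 in parental cells, 17.2 and 11.4 with shCTL, 20.9 and 20.6 with shLCN2_1, and 28.03 and 16.2 with shLCN2_2. The parental and shCTL libraries overlapped. The LeptoM difference there was -0.025 ± 0.37 (adjusted p = 0.961).

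OAS2 in PC9 had values of 1.98 and 0 in parental cells, 8.26 and 5.08 with shCTL, 22.03 and 37.4 with shLCN2_1, and 91.7 and 63.2 with shLCN2_2. Its 2 parental reads against 14 in shCTL gave a ratio of 6.28 (95% exact interval 1.44 to 56.9, counting error only). EdgeR did not call OAS2 between these 2 groups (adjusted p = 0.0723). The fitted differences were 2.12 ± 0.57 (adjusted p = 0.0164, kept in 6 of 8) in LeptoM cells, 1.99 ± 0.57 (adjusted p = 0.0219, kept in 5 of 8) with shLCN2_1 and 3.36 ± 0.57 (adjusted p = 0.00707, kept in 5 of 8) with shLCN2_2. In MDA231, OAS2 counts were 255 and 301 in parental cells, 657 and 655 with shCTL, 827 and 794 with shLCN2_1, and 439 and 498 with shLCN2_2. All LeptoM libraries were above parental, with shLCN2_1 highest and shLCN2_2 lowest of the LeptoM groups. OAS2 rose by 1.24 ± 0.12 (adjusted p = 0.000427, kept in 8 of 8) there, and shLCN2_1 exceeded shLCN2_2 by 0.79 ± 0.12 (adjusted p = 0.0271, kept in 2 of 8).

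OAS3 went the other way in PC9, with 3804 and 3719 in parental cells, 3019.6 and 2789.6 with shCTL, 2060.0 and 2484 with shLCN2_1, and 3303 and 3068 with shLCN2_2. Parental libraries were the highest and shLCN2_1 the lowest, with no overlap between parental and shCTL. OAS3 fell by 0.37 ± 0.10 (adjusted p = 0.0142, kept in 6 of 8) in PC9 LeptoM cells and by 0.36 ± 0.10 (adjusted p = 0.0172, kept in 7 of 8, without the GC trend -0.26 with adjusted p = 0.0664) with shLCN2_1, and was 0.13 ± 0.10 (adjusted p = 0.372) with shLCN2_2. In MDA231, OAS3 was 652 and 524 in parental cells, 1526 and 1425 with shCTL, 1459.9 and 1567 with shLCN2_1, and 1393 and 1318 with shLCN2_2. Every LeptoM library there lay above parental, with shLCN2_2 just under shCTL and shLCN2_1. OAS3 rose by 1.33 ± 0.12 (adjusted p = 0.000312, kept in 8 of 8) in MDA231 LeptoM cells. The LeptoM effect in PC9 was below that in MDA231 by 1.71 ± 0.16 (adjusted p = 1.66e-06, kept in 16 of 16), where refits left out each of the 16 libraries of both lines.

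The IFIT proteins bind viral RNA that lacks the host cap and stop its translation. In LeptoM cells 2 of 4 IFIT members rose in PC9 (median 0.42), and 3 rose and 1 fell in MDA231 (median 0.65). In PC9 3 of 4 rose with shLCN2_1 and 3 with shLCN2_2.

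IFIT1 in PC9 was 22.8 and 35.2 in parental cells, 91.8 and 98.6 with shCTL, 184 and 261 with shLCN2_1, and 219 and 245 with shLCN2_2. Parental, shCTL and the 2 hairpin groups formed 3 levels, the hairpin groups overlapping. IFIT1 rose by 1.71 ± 0.25 (adjusted p = 0.000936, kept in 8 of 8) in LeptoM cells, 1.19 ± 0.25 (adjusted p = 0.00537, kept in 8 of 8) with shLCN2_1 and 1.27 ± 0.25 (adjusted p = 0.0114, kept in 4 of 8) with shLCN2_2. IFIT1 in MDA231 was 423 and 623 in parental cells, 769 and 844 with shCTL, 968 and 914 with shLCN2_1, and 364 and 353 with shLCN2_2. The shLCN2_2 libraries lay below both parental libraries, and the shCTL and shLCN2_1 libraries above them. It rose by 0.65 ± 0.18 (adjusted p = 0.0222, kept in 6 of 8) in MDA231 LeptoM cells, and shLCN2_1 exceeded shLCN2_2 by 1.39 ± 0.18 (adjusted p = 0.0145, kept in 2 of 8). The difference of shLCN2_2 from shCTL was -1.17 ± 0.18 (adjusted p = 0.0543).

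IFIT2 normalised counts in PC9 were 230.2 and 225 in parental cells, 363 and 323 with shCTL, 636 and 467 with shLCN2_1, and 490.5 and 488 with shLCN2_2. No hairpin library fell within the shCTL range. Its rise was 0.59 ± 0.15 (adjusted p = 0.0142, kept in 5 of 8) in LeptoM cells, 0.67 ± 0.15 (adjusted p = 0.00818, kept in 7 of 8, without the GC trend 0.31 with adjusted p = 0.169) with shLCN2_1 and 0.51 ± 0.15 (adjusted p = 0.049, kept in 2 of 8) with shLCN2_2. IFIT2 normalised counts in MDA231 were 295 and 483 in parental cells, 1586 and 1665 with shCTL, 2471 and 2243 with shLCN2_1, and 1301 and 1476 with shLCN2_2. LeptoM libraries were all far above parental, with a rise of 2.10 ± 0.21 (adjusted p = 0.000455, kept in 8 of 8). The hairpins were 0.53 ± 0.21 (adjusted p = 0.336) and -0.23 ± 0.21 (adjusted p = 0.595) from shCTL. The LeptoM effect in PC9 was below that in MDA231 by 1.52 ± 0.26 (adjusted p = 0.000432, kept in 16 of 16).

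IFIT3 in PC9 was 157 and 161 in parental cells, 178 and 204 with shCTL, 349 and 296 with shLCN2_1, and 302 and 266 with shLCN2_2. The LeptoM shCTL libraries lay just above parental, at 0.26 ± 0.14 (adjusted p = 0.169). With shLCN2_1 IFIT3 rose by 0.75 ± 0.14 (adjusted p = 0.00359, kept in 8 of 8, without the GC trend 0.42 with adjusted p = 0.0561) and with shLCN2_2 by 0.57 ± 0.14 (adjusted p = 0.0286, kept in 4 of 8). In MDA231, IFIT3 was 1551 and 1886 in parental cells, 2594 and 2767 with shCTL, 3248 and 3127 with shLCN2_1, and 1888 and 2001 with shLCN2_2. It rose by 0.65 ± 0.11 (adjusted p = 0.00325, kept in 8 of 8) in LeptoM cells and was higher with shLCN2_1 than with shLCN2_2 by 0.71 ± 0.11 (adjusted p = 0.0255, kept in 2 of 8). IFIT5, which unlike the other 3 showed no rise in any comparison, fell by 0.64 ± 0.13 (adjusted p = 0.00612, kept in 7 of 8, without the GC trend -0.26 with adjusted p = 0.00317) in MDA231 LeptoM cells and was -0.21 ± 0.20 (adjusted p = 0.407) in PC9.

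The IFITM genes encode small membrane proteins that block viruses from fusing with the cell. In PC9 LeptoM cells 1 of 3 rose (IFITM2), and in MDA231 a different 1 of 3 rose (IFITM1). All 3 rose with shLCN2_2 in PC9 (median 1.17), and 1 rose with shLCN2_1. Of these, IFITM1 passed the minimum mean in PC9 mainly through shLCN2_2.

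IFITM2 in PC9 was 0.992 and 1.17 in parental cells, 37.6 and 28.5 with shCTL, 83.9 and 48.5 with shLCN2_1, and 73.2 and 77.1 with shLCN2_2. Parental cells had 1 read in each library, whereas each LeptoM library had more, and the 69 shCTL reads against 2 gave a ratio of 30.9 (95% exact interval 8.24 to 260.5). The fitted rise in LeptoM cells was 4.02 ± 0.33 (adjusted p = 5.79e-05, kept in 8 of 8). With shLCN2_1 it rose by 0.94 ± 0.33 (adjusted p = 0.0474, kept in 1 of 8) and with shLCN2_2 by 1.17 ± 0.33 (adjusted p = 0.041, kept in 4 of 8). In MDA231, IFITM2 values were 916 and 569 in parental cells, 1167 and 951 with shCTL, 1361 and 1763 with shLCN2_1, and 1363 and 1201 with shLCN2_2. All LeptoM libraries were above parental, yet the LeptoM difference was 0.54 ± 0.24 (adjusted p = 0.1).

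IFITM1 values in PC9 were 1.98 and 5.87 in parental cells, 6.42 and 5.08 with shCTL, 16.8 and 5.51 with shLCN2_1, and 31.4 and 27.7 with shLCN2_2. Only the shLCN2_2 libraries stood clear of the rest, and the rise with shLCN2_2 was 2.18 ± 0.58 (adjusted p = 0.0351, kept in 4 of 8). In LeptoM shCTL cells the PC9 difference was 0.57 ± 0.58 (adjusted p = 0.456). In MDA231 the values were 45.4 and 44.7 in parental cells, 298 and 268 with shCTL, 604 and 726 with shLCN2_1, and 336 and 298 with shLCN2_2. Every LeptoM library was above parental and shLCN2_1 was above the other groups. IFITM1 rose by 2.62 ± 0.15 (adjusted p = 5.87e-05, kept in 8 of 8) in MDA231 LeptoM cells and by 1.23 ± 0.15 (adjusted p = 0.022, kept in 2 of 8) with shLCN2_1, and was 0.16 ± 0.15 (adjusted p = 0.584) with shLCN2_2. IFITM3 rose in PC9 with shLCN2_2 by 0.66 ± 0.16 (adjusted p = 0.0218, kept in 4 of 8) and was not called in LeptoM cells of either line.

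The sensors DDX58 (RIG-I), IFIH1 (MDA5) and DHX58 (LGP2) detect viral RNA in the cytoplasm, and DDX60 is a related helicase. In LeptoM cells 1 sensor rose and 1 fell in PC9 (median -0.024), whereas 3 rose in MDA231 (median 0.90). With shLCN2_1 3 rose and 1 fell in PC9, and with shLCN2_2 1 rose.

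DDX58 in PC9 was 1219 and 1091 in parental cells, 661 and 667 with shCTL, 981 and 1080.4 with shLCN2_1, and 962 and 926 with shLCN2_2. The shCTL libraries were below all 6 others, with the hairpin libraries between them and parental. It fell by 0.80 ± 0.091 (adjusted p = 0.000291, kept in 8 of 8) in LeptoM cells and rose by 0.63 ± 0.091 (adjusted p = 0.000891, kept in 8 of 8, without the GC trend 0.25 with adjusted p = 0.0289) with shLCN2_1 and 0.51 ± 0.091 (adjusted p = 0.00864, kept in 4 of 8) with shLCN2_2. In MDA231, DDX58 was 2169.7 and 2711 in parental cells, 3908 and 4382 with shCTL, 4469.8 and 4155 with shLCN2_1, and 3172 and 3419.6 with shLCN2_2. All LeptoM libraries lay above parental, a rise of 0.77 ± 0.12 (adjusted p = 0.0027, kept in 8 of 8). The effect in PC9 was below that in MDA231 by 1.57 ± 0.15 (adjusted p = 4.04e-06, kept in 16 of 16).

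DDX60 rose in LeptoM cells of both lines. Its PC9 values were 559 and 517 in parental cells, 710.2 and 756 with shCTL, 832 and 1044 with shLCN2_1, and 852 and 796 with shLCN2_2, a rise of 0.45 ± 0.12 (adjusted p = 0.017, kept in 5 of 8) in LeptoM cells and 0.35 ± 0.12 (adjusted p = 0.0468, kept in 1 of 8, without the GC trend -0.049 with adjusted p = 0.753) with shLCN2_1. Its MDA231 values were 187 and 268 in parental cells, 446 and 476 with shCTL, 555 and 508 with shLCN2_1, and 318 and 354 with shLCN2_2, a rise of 1.04 ± 0.18 (adjusted p = 0.00374, kept in 8 of 8). In both lines the parental libraries were the lowest and did not overlap with LeptoM libraries.

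DHX58, which regulates the other 2 receptors, was 25.5 and 17.9 in parental cells, 64.4 and 47.03 with shCTL, 77.1 and 97.1 with shLCN2_1, and 63.2 and 59.2 with shLCN2_2 in MDA231. It rose there by 1.32 ± 0.26 (adjusted p = 0.0064, kept in 7 of 8), with parental libraries below all others. In PC9, DHX58 differed by 0.11 ± 0.13 (adjusted p = 0.533) in LeptoM cells and fell by 0.39 ± 0.13 (adjusted p = 0.0417, kept in 1 of 8, without the GC trend 0.06 with adjusted p = 0.731) with shLCN2_1. IFIH1 was called only with shLCN2_1 in PC9, at 0.31 ± 0.10 (adjusted p = 0.0349, kept in 3 of 8, without the GC trend -0.045 with adjusted p = 0.744).

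STAT2 and IRF9 are subunits of the factor that reads the response element, IRF7 amplifies interferon production, and IRF1 acts downstream of interferon-gamma. In LeptoM cells 1 of these 4 members rose in PC9 (median 0.39), and 2 rose in MDA231 (median 0.89). In PC9 1 fell with shLCN2_1, and 2 rose with shLCN2_2.

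STAT2 normalised counts in PC9 were 1068 and 1013 in parental cells, 1434 and 1406 with shCTL, 1697 and 1529 with shLCN2_1, and 1701 and 1747 with shLCN2_2, with every LeptoM library above parental. STAT2 rose by 0.45 ± 0.079 (adjusted p = 0.00243, kept in 8 of 8) in PC9 LeptoM cells and by 0.28 ± 0.079 (adjusted p = 0.0415, kept in 4 of 8) with shLCN2_2. In MDA231 they were 961 and 876 in parental cells, 1543 and 1582 with shCTL, 1804 and 1662 with shLCN2_1, and 1276 and 1314 with shLCN2_2, again with no overlap with parental. The rise there was 0.77 ± 0.092 (adjusted p = 0.000813, kept in 8 of 8).

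IRF1 rose in MDA231, where it was 871 and 676 in parental cells, 1715 and 1387 with shCTL, 2057 and 2204 with shLCN2_1, and 1499 and 1539 with shLCN2_2, by 1.01 ± 0.15 (adjusted p = 0.002, kept in 8 of 8). No LeptoM library reached down to the parental values. In PC9, IRF1 had a difference of 0.32 ± 0.17 (adjusted p = 0.161). IRF7 parted the hairpins in PC9: it fell by 1.86 ± 0.26 (adjusted p = 0.000835, kept in 8 of 8, without the GC trend -0.57 with adjusted p = 0.0492) with shLCN2_1 and was 0.49 ± 0.26 (adjusted p = 0.231) with shLCN2_2, and shLCN2_1 was below shLCN2_2 by 2.35 ± 0.26 (adjusted p = 0.000189, kept in 8 of 8, without the GC trend -0.75 with adjusted p = 0.0153). IRF7 has the highest GC content of the members, 66.8%. IRF9 rose by 0.76 ± 0.18 (adjusted p = 0.0212, kept in 4 of 8) with shLCN2_2 in PC9 and was -0.49 ± 0.18 (adjusted p = 0.0509) in PC9 and -0.47 ± 0.25 (adjusted p = 0.149) in MDA231 LeptoM cells.

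In the ISG15 system, UBE2L6 is the enzyme that carries ISG15, HERC5 and HERC6 belong to the family of ligases that attach it, and USP18 removes it. In LeptoM cells 2 of these 5 members rose and 1 fell in PC9 (median -0.27), and 3 rose in MDA231 (median 0.89). With shLCN2_1 3 rose and 1 fell in PC9, and with shLCN2_2 1 rose.

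ISG15 in PC9 was 106 and 195 in parental cells, 379 and 367 with shCTL, 131 and 88.1 with shLCN2_1, and 508 and 607 with shLCN2_2. The shLCN2_1 libraries overlapped with parental, the shCTL libraries lay above both, and the shLCN2_2 libraries were the highest. ISG15 rose by 1.37 ± 0.29 (adjusted p = 0.00573, kept in 8 of 8) in LeptoM cells and fell by 1.78 ± 0.29 (adjusted p = 0.00158, kept in 8 of 8, without the GC trend -0.83 with adjusted p = 0.0192) with shLCN2_1, and was 0.57 ± 0.29 (adjusted p = 0.2) with shLCN2_2. The hairpins differed by -2.36 ± 0.29 (adjusted p = 0.000284, kept in 8 of 8, without the GC trend -1.20 with adjusted p = 0.00338). In MDA231 ISG15 was 162 and 71.5 in parental cells, 315 and 234 with shCTL, 336 and 688 with shLCN2_1, and 514 and 254 with shLCN2_2, where shLCN2_1 and shLCN2_2 overlapped and the LeptoM difference was 1.33 ± 0.52 (adjusted p = 0.0709).

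HERC6 values in PC9 were 347 and 326 in parental cells, 582 and 564 with shCTL, 973 and 672 with shLCN2_1, and 797 and 648 with shLCN2_2. HERC6 values in MDA231 were 264 and 262 in parental cells, 477 and 498 with shCTL, 435 and 406 with shLCN2_1, and 298 and 359.8 with shLCN2_2. Parental libraries were the lowest in both lines. The LeptoM rises were 0.76 ± 0.17 (adjusted p = 0.00839, kept in 7 of 8) in PC9 and 0.89 ± 0.13 (adjusted p = 0.00176, kept in 8 of 8) in MDA231. HERC6 also rose with shLCN2_1 in PC9, by 0.50 ± 0.17 (adjusted p = 0.0489, kept in 1 of 8, without the GC trend 0.20 with adjusted p = 0.42).

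UBE2L6 in PC9 was 1577 and 1590.0 in parental cells, 1305 and 1252 with shCTL, 2060.0 and 1769.9 with shLCN2_1, and 1768 and 1678 with shLCN2_2, with shCTL below all others. It fell by 0.31 ± 0.087 (adjusted p = 0.0208, kept in 4 of 8) in LeptoM cells and rose by 0.58 ± 0.087 (adjusted p = 0.00113, kept in 8 of 8, without the GC trend 0.94 with adjusted p = 0.000487) with shLCN2_1 and 0.43 ± 0.087 (adjusted p = 0.0133, kept in 4 of 8) with shLCN2_2. In MDA231, UBE2L6 was 712 and 652 in parental cells, 1478 and 1389 with shCTL, 1698 and 1858 with shLCN2_1, and 1531 and 1470.4 with shLCN2_2, and every LeptoM library was above parental. The rise there was 1.07 ± 0.10 (adjusted p = 0.00028, kept in 8 of 8), and the effect in PC9 was below it by 1.38 ± 0.13 (adjusted p = 1.29e-06, kept in 16 of 16).

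HERC5 in PC9 was 261 and 207 in parental cells, 193 and 191 with shCTL, 439 and 352 with shLCN2_1, and 219 and 199 with shLCN2_2, high in both shLCN2_1 libraries. Its rise was 1.03 ± 0.16 (adjusted p = 0.00137, kept in 8 of 8) with shLCN2_1, which also exceeded shLCN2_2 by 0.91 ± 0.16 (adjusted p = 0.00186, kept in 8 of 8, without the GC trend 0.50 with adjusted p = 0.0291), while in LeptoM cells it was -0.27 ± 0.16 (adjusted p = 0.201). In MDA231, HERC5 was 1078 and 1159 in parental cells, 1326 and 1373 with shCTL, 1451 and 1379 with shLCN2_1, and 974 and 1039 with shLCN2_2, with shLCN2_2 below all other groups. HERC5 had a LeptoM rise of 0.27 ± 0.09 (adjusted p = 0.0421, kept in 1 of 8, without the GC trend 0.50 with adjusted p = 0.000365) there and shLCN2_1 was above shLCN2_2 by 0.49 ± 0.09 (adjusted p = 0.0421, kept in 2 of 8). USP18 was not called in any comparison of either line, with LeptoM differences of -0.27 ± 0.15 (adjusted p = 0.183) in PC9 and -0.33 ± 0.28 (adjusted p = 0.357) in MDA231.

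Of the 11 direct antiviral effectors, 9 passed the minimum mean. In LeptoM cells 4 of these 9 rose and 1 fell in PC9 (median 0.70), and 7 rose and 2 fell in MDA231 (median 0.70). In PC9 4 rose and 2 fell with shLCN2_1, and 6 rose with shLCN2_2. The other 2 were low. RSAD2 (viperin) values in PC9 were 0 and 0 in parental cells, 7.34 and 3.05 with shCTL, 3.15 and 4.41 with shLCN2_1, and 2.41 and 5.196 with shLCN2_2. RSAD2 values in MDA231 were 0 and 0 in parental cells, 6.44 and 4.55 with shCTL, 4.57 and 4.500 with shLCN2_1, and 5.03 and 4.23 with shLCN2_2. RSAD2 thus had 0 reads in all 4 parental libraries and some in all 12 LeptoM libraries. CMPK2, a mitochondrial nucleotide kinase, was at 0 and 2.35 in parental cells, 1.84 and 2.03 with shCTL, 14.7 and 6.61 with shLCN2_1, and 9.65 and 7.79 with shLCN2_2 in PC9.

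MX1, a GTPase that blocks incoming viral particles, was 75.4 and 76.3 in parental cells, 141 and 109 with shCTL, 260.1 and 177 with shLCN2_1, and 384 and 362 with shLCN2_2 in PC9. No groups overlapped, and the order was parental, shCTL, shLCN2_1 and shLCN2_2. The rises were 0.70 ± 0.21 (adjusted p = 0.0253, kept in 5 of 8) in LeptoM cells, 0.79 ± 0.21 (adjusted p = 0.016, kept in 7 of 8) with shLCN2_1 and 1.58 ± 0.21 (adjusted p = 0.00317, kept in 8 of 8) with shLCN2_2. In MDA231, MX1 was 70.9 and 116 in parental cells, 144 and 152 with shCTL, 251 and 273 with shLCN2_1, and 107 and 89.4 with shLCN2_2. The shLCN2_2 libraries lay within the parental range and the shLCN2_1 libraries above all others. MX1 rose by 0.70 ± 0.24 (adjusted p = 0.0487, kept in 1 of 8, without the GC trend 0.55 with adjusted p = 0.0728) in LeptoM cells, and shLCN2_1 exceeded shLCN2_2 by 1.41 ± 0.24 (adjusted p = 0.0345, kept in 2 of 8).

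MX2, a related GTPase, stood at 19.8 and 17.6 in parental cells, 13.8 and 10.2 with shCTL, 19.9 and 33.04 with shLCN2_1, and 48.2 and 51.1 with shLCN2_2 in PC9. Its lowest libraries were those of shCTL and its highest those of shLCN2_2. It was -0.62 ± 0.32 (adjusted p = 0.151) in PC9 LeptoM cells, and rose by 1.06 ± 0.32 (adjusted p = 0.0282, kept in 3 of 8, without the GC trend 0.84 with adjusted p = 0.0701) with shLCN2_1 and 1.98 ± 0.32 (adjusted p = 0.00603, kept in 5 of 8) with shLCN2_2. In MDA231, MX2 was 11.3 and 2.98 in parental cells, 25.03 and 25.8 with shCTL, 62.7 and 63.6 with shLCN2_1, and 28.7 and 21.1 with shLCN2_2, with every LeptoM library above parental. The rise there was 1.91 ± 0.50 (adjusted p = 0.0182, kept in 6 of 8), and the LeptoM effect in PC9 was below it by 2.53 ± 0.59 (adjusted p = 0.00406, kept in 16 of 16).

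BST2 (tetherin), which holds virions at the cell surface, was 448 and 363 in parental cells, 27.9 and 28.1 with shCTL, 51.6 and 77.1 with shLCN2_1, and 29.5 and 24.6 with shLCN2_2 in MDA231. All 6 LeptoM libraries were far under both parental libraries, and BST2 fell by 3.80 ± 0.24 (adjusted p = 8.85e-05, kept in 8 of 8), the largest fall of any member in the comparisons within a line. The hairpins left it low, at 1.15 ± 0.24 (adjusted p = 0.104) and -0.052 ± 0.24 (adjusted p = 0.924) from shCTL. In PC9, BST2 was 3338 and 3751 in parental cells, 3427 and 3258 with shCTL, 2584 and 2227 with shLCN2_1, and 5164 and 4593 with shLCN2_2. The parental and shCTL libraries overlapped there, with a difference of -0.083 ± 0.10 (adjusted p = 0.526), whereas shLCN2_1 lay below and shLCN2_2 above them. BST2 fell by 0.48 ± 0.10 (adjusted p = 0.00538, kept in 7 of 8, without the GC trend -0.11 with adjusted p = 0.348) with shLCN2_1 and rose by 0.54 ± 0.10 (adjusted p = 0.00918, kept in 5 of 8) with shLCN2_2.

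SAMD9 and its neighbour SAMD9L restrict poxviruses. SAMD9 normalised counts in PC9 were 3041 and 2781 in parental cells, 7155 and 7236 with shCTL, 8480.2 and 7861 with shLCN2_1, and 9299 and 8782 with shLCN2_2. SAMD9 normalised counts in MDA231 were 837 and 947 in parental cells, 1237 and 1356 with shCTL, 1421 and 1269 with shLCN2_1, and 824 and 924 with shLCN2_2. Parental libraries were the lowest in PC9, while in MDA231 the shLCN2_2 and parental libraries overlapped. SAMD9 rose by 1.31 ± 0.071 (adjusted p = 7.9e-06, kept in 8 of 8) and 0.54 ± 0.12 (adjusted p = 0.0089, kept in 7 of 8, without the GC trend 0.94 with adjusted p = 1.84e-05) in the LeptoM cells of PC9 and MDA231, and by 0.33 ± 0.071 (adjusted p = 0.0162, kept in 4 of 8) with shLCN2_2 in PC9. SAMD9L in PC9 was 326 and 271 in parental cells, 716 and 758 with shCTL, 767 and 934 with shLCN2_1, and 1115 and 999 with shLCN2_2. SAMD9L in MDA231 was 286 and 334 in parental cells, 547 and 592 with shCTL, 620.2 and 569.5 with shLCN2_1, and 412 and 516 with shLCN2_2. Every LeptoM library lay above parental in both lines. Its LeptoM rises were 1.30 ± 0.13 (adjusted p = 0.000162, kept in 8 of 8) and 0.88 ± 0.15 (adjusted p = 0.00326, kept in 8 of 8).

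XAF1, a pro-apoptotic protein, was 12.9 and 14.1 in parental cells, 33.03 and 43.7 with shCTL, 169.9 and 90.3 with shLCN2_1, and 170.5 and 125 with shLCN2_2 in PC9. All groups lay above parental, and both hairpin groups above shCTL. It rose by 1.43 ± 0.33 (adjusted p = 0.0082, kept in 7 of 8) in LeptoM cells, 1.68 ± 0.33 (adjusted p = 0.0039, kept in 8 of 8) with shLCN2_1 and 1.91 ± 0.33 (adjusted p = 0.00724, kept in 5 of 8) with shLCN2_2. In MDA231, XAF1 was 34.03 and 35.8 in parental cells, 50.1 and 58.4 with shCTL, 114 and 90.00 with shLCN2_1, and 56.1 and 54.2 with shLCN2_2, with every LeptoM library above parental and a LeptoM rise of 0.62 ± 0.20 (adjusted p = 0.0391, kept in 0 of 8).

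EIF2AK2 (PKR), the kinase that stops translation on sensing double-stranded RNA, was 8854 and 8509 in parental cells, 6928 and 7271 with shCTL, 9382 and 9936 with shLCN2_1, and 8046 and 7627 with shLCN2_2 in PC9. EIF2AK2 in MDA231 was 5046 and 6122 in parental cells, 4147 and 4415 with shCTL, 4553 and 4041 with shLCN2_1, and 3636 and 4065 with shLCN2_2. In both lines the shCTL libraries lay below parental, with a fall of 0.29 ± 0.063 (adjusted p = 0.00669, kept in 7 of 8, without the GC trend -0.16 with adjusted p = 0.0277) in PC9 and 0.38 ± 0.12 (adjusted p = 0.0364, kept in 1 of 8, without the GC trend -0.017 with adjusted p = 0.756) in MDA231. EIF2AK2 rose with shLCN2_1 in PC9 by 0.44 ± 0.063 (adjusted p = 0.000836, kept in 8 of 8, without the GC trend 0.047 with adjusted p = 0.493). The exonuclease ISG20 and TRIM22 rose in MDA231 LeptoM cells by 1.38 ± 0.24 (adjusted p = 0.0035, kept in 8 of 8) and 1.70 ± 0.16 (adjusted p = 0.000308, kept in 8 of 8), and were 0.49 ± 0.29 (adjusted p = 0.2) and 0.88 ± 0.98 (adjusted p = 0.488) in PC9.

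The IFI genes are named for their induction by interferon and differ in function. In LeptoM cells 3 of 6 rose in PC9 (median 1.39), and 1 rose and 1 fell in MDA231 (median 0.054). In PC9 1 fell with shLCN2_1, and 2 rose with shLCN2_2 (median 1.72).

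IFI44 in PC9 was 5.95 and 2.35 in parental cells, 45.9 and 33.5 with shCTL, 33.6 and 100.2 with shLCN2_1, and 125 and 101 with shLCN2_2, with all LeptoM libraries above parental. It rose by 3.06 ± 0.53 (adjusted p = 0.00229, kept in 8 of 8) in LeptoM cells and was 1.49 ± 0.53 (adjusted p = 0.0843) with shLCN2_2. In MDA231 it was 519 and 682 in parental cells, 616 and 669 with shCTL, 648 and 612 with shLCN2_1, and 422 and 451 with shLCN2_2. The parental libraries spanned both shCTL libraries, and the LeptoM difference was 0.11 ± 0.15 (adjusted p = 0.556). IFI44L values in PC9 were 0 and 2.35 in parental cells, 5.51 and 9.15 with shCTL, 15.7 and 23.1 with shLCN2_1, and 43.4 and 20.8 with shLCN2_2. There 15 shCTL reads against 2 parental gave a ratio of 6.72 (95% exact interval 1.56 to 60.6). EdgeR did not call IFI44L between these 2 groups (adjusted p = 0.0887). Its fitted rise was 2.15 ± 0.64 (adjusted p = 0.0257, kept in 5 of 8). In MDA231 its values of 14.2 and 17.9 in parental cells, 12.9 and 18.2 with shCTL, 15.03 and 13.5 with shLCN2_1, and 10.8 and 19.7 with shLCN2_2 overlapped between all groups, with a LeptoM difference of -0.052 ± 0.36 (adjusted p = 0.916).

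IFI35 in PC9 was 811 and 865 in parental cells, 1919 and 1877 with shCTL, 991 and 1077 with shLCN2_1, and 2183 and 2163 with shLCN2_2. LeptoM libraries with shCTL and shLCN2_2 were above the rest, and shLCN2_1 lay between these and parental. IFI35 rose by 1.18 ± 0.077 (adjusted p = 1.78e-05, kept in 8 of 8) in LeptoM cells, fell by 0.88 ± 0.077 (adjusted p = 0.000168, kept in 8 of 8, without the GC trend -0.36 with adjusted p = 0.00928) with shLCN2_1 and was 0.20 ± 0.077 (adjusted p = 0.112) with shLCN2_2. In MDA231 IFI35 was 576 and 378 in parental cells, 503 and 432 with shCTL, 542 and 652 with shLCN2_1, and 558 and 469.7 with shLCN2_2, and the parental libraries spanned 5 of the 6 LeptoM libraries. Its LeptoM difference there was -0.0015 ± 0.22 (adjusted p = 0.996).

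IFI6, a mitochondrial and endoplasmic reticulum protein that opposes cell death, was 71.4 and 61.1 in parental cells, 77.1 and 49.8 with shCTL, 73.4 and 102 with shLCN2_1, and 326 and 275 with shLCN2_2 in PC9. The shLCN2_2 libraries stood above all 6 others. It was -0.091 ± 0.26 (adjusted p = 0.797) in LeptoM cells and rose by 2.25 ± 0.26 (adjusted p = 0.00192, kept in 8 of 8) with shLCN2_2. In MDA231 it was 56.7 and 74.5 in parental cells, 123 and 110.0 with shCTL, 125 and 140.1 with shLCN2_1, and 126 and 114 with shLCN2_2, with all LeptoM libraries above parental and a rise of 0.83 ± 0.19 (adjusted p = 0.011, kept in 7 of 8, without the GC trend 0.52 with adjusted p = 0.0656). IFI27 in PC9 had 7.34 and 6.097 with shCTL and 69.95 and 71.9 with shLCN2_2, a rise of 3.22 ± 0.63 (adjusted p = 0.0115, kept in 4 of 8). Its 14 shCTL reads against 3 in parental cells gave a ratio of 4.18 (95% exact interval 1.17 to 22.7).

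IFI16, a nuclear DNA sensor, was 4569 and 5375 in parental cells, 2482 and 2613 with shCTL, 2803 and 2687 with shLCN2_1, and 2983 and 3215 with shLCN2_2 in MDA231. All LeptoM libraries were below parental, a fall of 0.96 ± 0.10 (adjusted p = 0.000488, kept in 8 of 8, without the GC trend -0.60 with adjusted p = 9.37e-05). In PC9, IFI16 was 15.9 and 22.3 in parental cells, 4.59 and 7.11 with shCTL, 15.7 and 4.41 with shLCN2_1, and 4.02 and 6.06 with shLCN2_2, and the LeptoM difference was -1.56 ± 0.57 (adjusted p = 0.056).

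SP100 and PML build the nuclear bodies that silence viral DNA, and PARP9 and PARP14 belong to the ADP-ribosyltransferases. In LeptoM cells 2 of these 4 fell in PC9 (median -0.14), and 2 rose and 1 fell in MDA231 (median 0.26). In PC9 3 rose and 1 fell with shLCN2_1, and 1 rose with shLCN2_2.

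SP100 was 2036 and 2049 in parental cells, 1508 and 1597 with shCTL, 2163 and 1919.7 with shLCN2_1, and 1867 and 1721 with shLCN2_2 in PC9. SP100 in MDA231 was 3656 and 4496 in parental cells, 2164 and 2311 with shCTL, 2246 and 2125 with shLCN2_1, and 2009 and 2105 with shLCN2_2. The shCTL libraries lay below parental in both lines, with falls of 0.40 ± 0.084 (adjusted p = 0.00573, kept in 7 of 8) in PC9 and 0.86 ± 0.11 (adjusted p = 0.00117, kept in 8 of 8) in MDA231. With shLCN2_1 in PC9 it rose by 0.39 ± 0.084 (adjusted p = 0.00603, kept in 7 of 8, without the GC trend 0.03 with adjusted p = 0.809). PML was 973 and 691 in parental cells, 1623 and 1485 with shCTL, 2060.4 and 2611 with shLCN2_1, and 2654 and 2117 with shLCN2_2 in MDA231, where parental libraries were the lowest and the rise was 0.92 ± 0.20 (adjusted p = 0.00884, kept in 7 of 8, without the GC trend 0.54 with adjusted p = 0.000262). In PC9, PML fell by 0.67 ± 0.15 (adjusted p = 0.00749, kept in 7 of 8, without the GC trend -0.21 with adjusted p = 0.199) with shLCN2_1.

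PARP14 in PC9 was 2900.4 and 2704 in parental cells, 2317 and 2273 with shCTL, 3092 and 3308 with shLCN2_1, and 3117 and 2678 with shLCN2_2, with shCTL lowest. It fell by 0.29 ± 0.087 (adjusted p = 0.0274, kept in 5 of 8, without the GC trend -0.18 with adjusted p = 0.0736) in LeptoM cells and rose by 0.48 ± 0.087 (adjusted p = 0.00283, kept in 8 of 8, without the GC trend 0.11 with adjusted p = 0.259) with shLCN2_1 and 0.33 ± 0.087 (adjusted p = 0.0327, kept in 4 of 8) with shLCN2_2. In MDA231 it was 942 and 1165 in parental cells, 1440.4 and 1566 with shCTL, 1968 and 1747 with shLCN2_1, and 1355 and 1504 with shLCN2_2, with all LeptoM libraries above parental and a rise of 0.52 ± 0.13 (adjusted p = 0.0159, kept in 6 of 8, without the GC trend 0.80 with adjusted p = 9.96e-06). The effect in PC9 was below that in MDA231 by 0.81 ± 0.16 (adjusted p = 0.00116, kept in 16 of 16). PARP9 was not called in LeptoM cells of either line and rose by 0.55 ± 0.076 (adjusted p = 0.000746, kept in 8 of 8, without the GC trend 0.20 with adjusted p = 0.0402) with shLCN2_1 in PC9.

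The last 2 members are EPSTI1 and LGALS3BP, a secreted glycoprotein. EPSTI1 in PC9 was 88.3 and 68.1 in parental cells, 29.4 and 55.9 with shCTL, 49.3 and 68.3 with shLCN2_1, and 91.7 and 96.99 with shLCN2_2, with both shCTL libraries below parental and both shLCN2_2 libraries above all others. This was a fall of 0.92 ± 0.32 (adjusted p = 0.0456, kept in 3 of 8, without the GC trend -0.81 with adjusted p = 0.0584) in LeptoM cells and a rise of 1.20 ± 0.32 (adjusted p = 0.0348, kept in 5 of 8) with shLCN2_2. In MDA231 its values of 48.2 and 26.8 in parental cells, 40.1 and 53.1 with shCTL, 72.5 and 67.5 with shLCN2_1, and 42.4 and 46.5 with shLCN2_2 gave a LeptoM difference of 0.35 ± 0.30 (adjusted p = 0.369). LGALS3BP was 35704 and 32105 with shCTL and 14410.5 and 15370.5 with shLCN2_1 in PC9, a fall of 1.19 ± 0.13 (adjusted p = 0.000256, kept in 8 of 8, without the GC trend -0.51 with adjusted p = 0.00356). With shLCN2_2 it was 0.40 ± 0.13 (adjusted p = 0.0662), and in LeptoM cells 0.27 ± 0.13 (adjusted p = 0.118) in PC9 and 0.79 ± 0.28 (adjusted p = 0.0535) in MDA231.

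Set against each other, the LeptoM effects of the 2 lines differed for 23 of 45 members, 8 with a higher effect in PC9 and 15 with a lower one, where 46.0% of all 13392 genes differed (21.7% higher and 24.3% lower). The share of members is near that of all genes. BST2 (3.72), IFITM2 (3.47) and IFI44 (2.95) had the largest differences towards PC9, and MX2 (-2.53), IFITM1 (-2.05) and OAS3 (-1.71) towards MDA231. Of the 4 sensors, 3 had a lower effect in PC9, as did 2 of the 4 STAT and IRF members. The count was 13 without the second PC9 shCTL library and 15 without the first MDA231 shCTL library, and edgeR called 15, of which 46.7% were higher in PC9, against 34.8% of the 23. Of all genes called, 47.2% were higher in PC9 as deposited, 54.0% with edgeR and 32.4% under upper-quartile scaling.

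**Figure D3:**
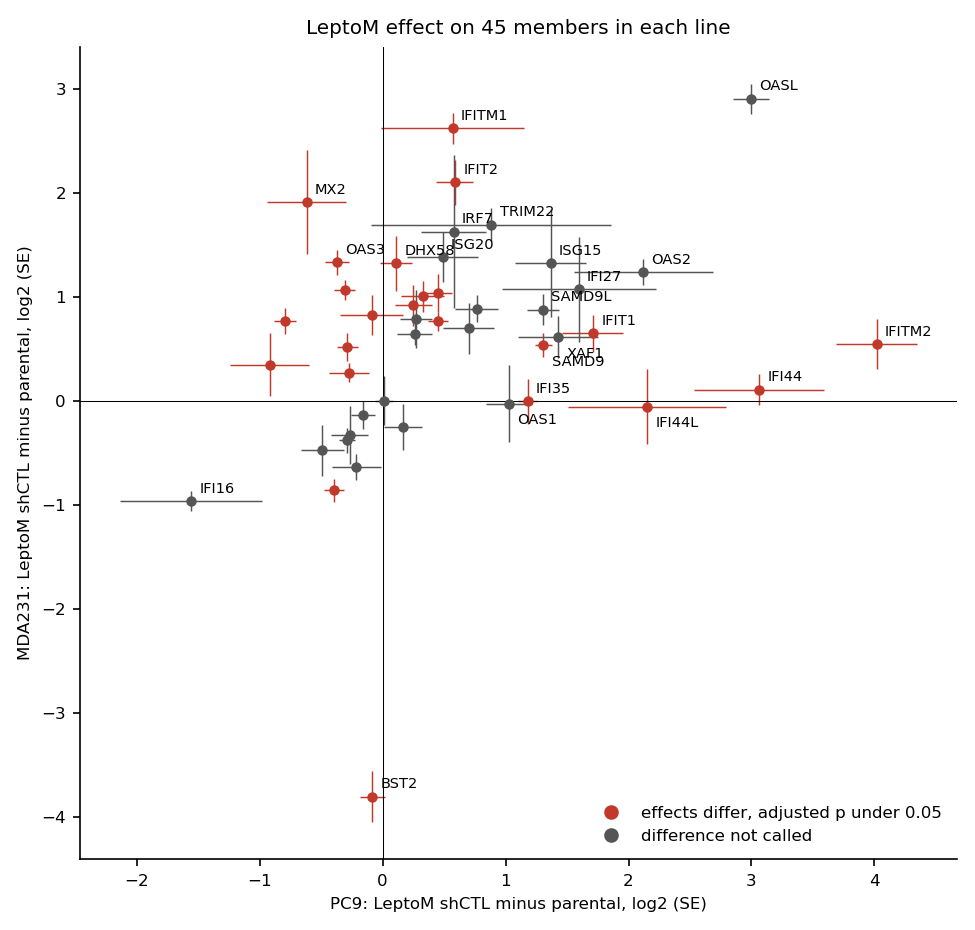
Each point is 1 of 45 members, placed by its log2 difference between LeptoM shCTL and parental cells in PC9 (horizontal) and MDA231 (vertical), with SE bars. Red marks members whose 2 effects differed at an adjusted p under 0.05. OASL lies at 2.99 and 2.91, while BST2 lies near 0 in PC9 and at -3.80 in MDA231.

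The same test was added for the hairpins after the data were seen. With shLCN2_1 the effect was higher in PC9 for 8 members and lower for 10, where 15.7% and 21.9% of all genes were (37.6% called). With shLCN2_2 it was higher in PC9 for 14 members and lower for 0, where 3.97% and 1.9% of all genes were (5.87% called). For the lower direction limma's unadjusted p was under 0.05 for 0 members and edgeR called 0. OASL differed by 1.99 ± 0.20 (adjusted p = 0.000111, kept in 16 of 16), IFIT1 by 2.44 ± 0.31 (adjusted p = 0.000495, kept in 16 of 16) and MX1 by 2.17 ± 0.32 (adjusted p = 0.00142, kept in 16 of 16). The 8 higher with shLCN2_1 are 44.4% of the 18 called, a share that was 55.0% under upper-quartile scaling and 13.3% with the GC trend taken out. Over all genes called these shares were near the members', at 41.7%, 61.1% and 14.6%. The count of 14 with shLCN2_2 ranged from 6 to 19 when each of the 16 libraries was left out, with 6 without the second MDA231 shCTL or the first PC9 shLCN2_2 library, 7 without the first MDA231 shLCN2_2 library, 8 without either PC9 shCTL library and 9 without the first MDA231 shCTL library. The count of 18 with shLCN2_1 ranged from 1 to 20, with 1 call without the second MDA231 shCTL library and 2 without the second MDA231 shLCN2_1 library. It was 11 without the first PC9 shCTL library.

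Of 48 other genes of the interferon pathway, 32 were tested in PC9 and 34 in MDA231. In LeptoM cells 9 rose and 8 fell in PC9, shares near the 23.8% and 21.8% of all genes, and 14 rose and 5 fell in MDA231, where 24.8% and 23.8% of all genes did. The 14 include genes that passed the minimum mean only through LeptoM groups, so this count is not independent support. With shLCN2_1 11 rose and 9 fell in PC9, where 18.8% and 25.3% of all genes did, and with shLCN2_2 5 rose and 1 fell, where 9.81% and 9.7% did. In MDA231 limma called 0 of the 34 with either hairpin, while 7 with shLCN2_1 and 5 with shLCN2_2 had an unadjusted p under 0.05 and edgeR called 3 and 2. Of the 34, GBP4 and CXCL11 were higher with shLCN2_1 than with shLCN2_2.

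Of 10 interferon ligands, IFNE, an epithelial type I interferon, was the 1 that could be tested, in PC9, and the others are not analysed here. IFNE values were 36.7 and 43.4 in parental cells, 117 and 131 with shCTL, 101 and 121 with shLCN2_1, and 82.01 and 78.8 with shLCN2_2. All 6 LeptoM libraries were above parental, and IFNE rose by 1.61 ± 0.19 (adjusted p = 0.000306, kept in 8 of 8). Among the receptor genes, IFNAR1 rose in the LeptoM cells of PC9 by 0.37 ± 0.074 (adjusted p = 0.00444, kept in 7 of 8) and of MDA231 by 0.47 ± 0.10 (adjusted p = 0.00904, kept in 7 of 8, without the GC trend 0.76 with adjusted p = 1.46e-05). Its partner IFNAR2 fell in PC9 by 0.61 ± 0.11 (adjusted p = 0.00299, kept in 8 of 8) and was -0.12 ± 0.10 (adjusted p = 0.356) in MDA231.

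In LeptoM cells the kinase JAK1 fell by 0.81 ± 0.068 (adjusted p = 6.58e-05, kept in 8 of 8) in PC9 and rose by 0.47 ± 0.081 (adjusted p = 0.00375, kept in 8 of 8) in MDA231. TYK2 fell by 1.46 ± 0.13 (adjusted p = 0.000168, kept in 8 of 8, without the GC trend -0.71 with adjusted p = 0.000682) with shLCN2_1 in PC9. In LeptoM cells the DNA-sensing adaptor TMEM173 (STING) rose by 1.34 ± 0.15 (adjusted p = 0.000264, kept in 8 of 8) in PC9 and 0.81 ± 0.17 (adjusted p = 0.00837, kept in 7 of 8, without the GC trend 0.48 with adjusted p = 0.00114) in MDA231, and the inhibitor SOCS1 by 1.17 ± 0.30 (adjusted p = 0.0174, kept in 6 of 8, without the GC trend 0.41 with adjusted p = 0.264) in MDA231.

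Of 10 targets typical of interferon-gamma, 3 of 4 tested rose and 1 fell in PC9 LeptoM cells, and 7 of 9 rose in MDA231. Of all genes, 23.8% rose and 21.8% fell in PC9, and 24.8% rose in MDA231. Some of the 7 in MDA231, CXCL11 among them, had a parental mean under 10 and passed the minimum mean only through LeptoM groups. They had to differ, so this count is not independent support. The guanylate-binding protein gene GBP2 rose in both, by 1.84 ± 0.15 (adjusted p = 6.45e-05, kept in 8 of 8) and 1.45 ± 0.15 (adjusted p = 0.000524, kept in 8 of 8). GBP1 fell in PC9 by 2.72 ± 0.52 (adjusted p = 0.00368, kept in 8 of 8). In MDA231, GBP4 was 22.7 and 35.8 in parental cells, 234 and 253 with shCTL, 560.0 and 532 with shLCN2_1, and 132 and 123 with shLCN2_2 and rose by 3.05 ± 0.22 (adjusted p = 0.00012, kept in 8 of 8), with shLCN2_1 above shLCN2_2 by 2.09 ± 0.22 (adjusted p = 0.00766, kept in 4 of 8). The chemokine CXCL11 was 0 and 0 in parental cells, 154 and 196 with shCTL, 435 and 408 with shLCN2_1, and 63.95 and 76.8 with shLCN2_2 there. It had 0 reads in both parental libraries, was present in all 6 LeptoM libraries, and was higher with shLCN2_1 than with shLCN2_2 by 2.57 ± 0.21 (adjusted p = 0.00462, kept in 4 of 8).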

How the data were processed

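RNA-seq gene tables were analysed, 1 per cell line with 8 libraries each. The authors deposited read counts divided by a size factor per library (unit signal, not logged). Per the submitters' processing notes HTSeq 0.5.3 and DESeq2 1.22.1 were used with build hg19. The sources used here do not give the aligner, annotation release or strand setting. Whole reads were recovered from the steps in the deposited normalised signal: all values, 100% of 155632 in PC9 and 143632 in MDA231, came within 0.001 of whole reads. In PC9, 4 lines that name no gene were left out of totals and tests. They held 36.5% of the second parental library and 24.4 to 26.4% of each other library. Reads with more than 1 alignment came to 42.4% of the gene reads in that parental library and 18.1 to 20.6% in the others.

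Genes with a mean of at least 10 were tested (15650 in PC9, 14387 in MDA231). Log2 of (value + 1) was fitted with limma 3.58.1 (R 4.3.3, trend) over the 4 groups of a line, with Benjamini-Hochberg adjustment over all genes. This pseudocount understates the change of low genes. Effects of the 2 lines were compared over the 13392 shared genes with Welch-Satterthwaite degrees of freedom. Alternatives were edgeR 4.0.16 quasi-likelihood on recovered reads, other pseudocounts and scaling, no filter, a replicate block, only the 2 groups compared, a GC trend (spline, 5 degrees of freedom) taken out of each library, reads thinned to equal depth, and leaving out each library. The test was tried on simulated data with 200 changed genes: for log2 changes of 1 and 2 limma recovered 89% and 95% in the PC9 comparison, and 85% and 93% in MDA231, with 8.46% and 7.77% of calls false. The simulation gave every gene the same dispersion and held no GC trend. It also changed far fewer genes than the 7138 and 7001 called in LeptoM cells of PC9 and MDA231. These rates therefore do not carry over to the libraries described here.

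Groups came from the sample labels. Libraries of a group differed by more than sampling noise (chi-square per degree of freedom 2.94 to 39.9), and none was merged. The members, gene lists and tests were chosen with earlier results of these data known. Values in every library are given for members called in LeptoM cells of both lines, for the called member with the largest LeptoM difference in each line and subfamily, for members called with both hairpins in a line, and for those whose LeptoM effects had opposite signs and differed between lines. Other members are given by their differences, some with values chosen after these were seen. Intervals on reads cover counting error only. Results for 1 of the 48 pathway genes are not reported here.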

Additional observations from a re-analysis of the deposited data

Results flagged for a closer look

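The LeptoM effect differed between the lines, by a test of the difference itself, for 23 members. Given as log2 differences, PC9 effect minus MDA231 effect, the effect was higher in PC9 for BST2 (3.72), IFITM2 (3.47), IFI44 (2.95), IFI44L (2.20), IFI35 (1.18), IFIT1 (1.06), SAMD9 (0.77) and SP100 (0.46). It was lower in PC9 for 15. Those with differences beyond 1 were MX2 (-2.53), IFITM1 (-2.05), OAS3 (-1.71), DDX58 (-1.57), IFIT2 (-1.52), UBE2L6 (-1.38), EPSTI1 (-1.27) and DHX58 (-1.22). The other 7 were IFI6 (-0.92), PARP14 (-0.81), IRF1 (-0.68), PML (-0.67), DDX60 (-0.59), HERC5 (-0.55) and STAT2 (-0.32). For DDX58, UBE2L6, OAS3 and PARP14 the gene fell in PC9 and rose in MDA231. The depth of the MDA231 parental libraries cannot be told apart from the MDA231 effect. The same test, added after the data were seen, found 18 members whose shLCN2_1 effect differed between the lines and 14 whose shLCN2_2 effect did.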

How the results depend on the processing

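Leaving out each library gave 13 to 29 members called in PC9 LeptoM cells, 15 to 30 with shLCN2_1, 3 to 34 with shLCN2_2 and 15 to 26 between the hairpins. In MDA231 the ranges were 19 to 32, 0 to 7, 0 to 6 and 0 to 18. For the difference between lines they were 13 to 27 in LeptoM cells, 1 to 20 with shLCN2_1 and 6 to 19 with shLCN2_2. A lone library left in a group is assumed to vary like those of the other groups. With the GC trend taken out 17 members were called with shLCN2_1 in PC9. DHX58 (0.060), IFIH1 (-0.045) and DDX60 (-0.049) then changed sign in that comparison, and EIF2AK2 (-0.18) and PARP9 (-0.12) between the PC9 hairpins. The median over all genes was then -0.14 and -0.15 in these 2 comparisons, so a sign there is not a sign relative to all genes. In MDA231 the same step gave 15 members with shLCN2_1, 11 with shLCN2_2 and 22 between the hairpins. Fitting only the 2 groups compared gave 40 members with shLCN2_2 in PC9, and 6 and 2 with shLCN2_1 and shLCN2_2 in MDA231. A pseudocount of 5 gave 2 and 2 in MDA231, edgeR 4 and 2, and thinned reads 2, 0 and, between the hairpins, 5. For the difference between lines in LeptoM cells edgeR called 15. The deviations of same-numbered libraries correlated at -0.024 to 0.083 in PC9. In MDA231 they correlated at 0.364 to 0.445 among parental, shCTL and shLCN2_2 libraries and at -0.589 to -0.408 between these and shLCN2_1, so not every pair was positive and the numbers were not taken as pairs. The replicate block gave 0 with shLCN2_1, 0 with shLCN2_2 and 4 between the hairpins in MDA231, 24 in PC9 LeptoM cells, and moved no other count of members by over 1.5 times. With crossed numbers, chosen after seeing the data, MDA231 counts were 14, 17 and 22. The cause of these changes was not tested.

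Over all genes, fitting only the 2 groups gave 8045 calls against 3053 with shLCN2_2 in PC9, and 4382 against 7001 in MDA231 LeptoM cells. In MDA231, edgeR called 297, 188 and 687 genes with shLCN2_1, with shLCN2_2 and between them, and the fit without the GC trend 1062, 716 and 2135, against 121, 75 and 387. There the replicate block gave 47, 1 and 178, crossed numbers 1892, 2545 and 1963, thinned reads 76, 37 and 238, and only the 2 groups 384 with shLCN2_1 and 204 with shLCN2_2. The GC step gave 2208 differences between lines with shLCN2_2, against 786. With upper-quartile scaling, the all-gene median went from 0.044 to 0.28 in MDA231 LeptoM cells, from 0.031 to 0.16 with shLCN2_1 in PC9 and from 0.022 to 0.13 between the PC9 hairpins. Called in every alternative were 11 of 24 members in PC9 LeptoM cells, 10 of 29 with shLCN2_1, 3 of 23 with shLCN2_2 and 18 of 30 in MDA231 LeptoM cells. With 3 reads worth 8.51 to 8.94 in MDA231 parental libraries, lower levels could not be told from 0 there.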
